A study of Mus musculus with 12 samples.

Results

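Integrins are cell surface adhesion receptors made of 1 alpha and 1 beta chain. 8 subunit genes that matter for T lymphocytes were chosen by symbol: Itgal and Itgb2, which together form LFA-1, Itga4 with its partners Itgb1 and Itgb7, Itgae, and Itgav with its partners Itgb1 and Itgb3. Of these 8 genes, 7 had a row among the 11022 genes of the expression table. Itgae, which encodes the alphaE chain CD103, had none and was not analysed here. The table held 18 integrin subunit genes in all, so 11 others gave a comparison.

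The samples were cultures of P14 cytotoxic T lymphocytes (CTL), CD8 T cells whose transgenic LCMV-P14 T cell receptor (TCR) recognises the gp33-41 peptide. They came from lymph nodes or spleens of 3 female mice of 9 to 13 weeks. They were activated for 48 h with the gp33-41 peptide, interleukin 2 (IL-2) and 2 ng/mL interleukin 12. They were then grown for 5 days in IL-2, so later peptide was a restimulation. The 4 groups of 3 biological replicates were unstimulated CTL, CTL given 100 ng/mL peptide for 4 h (TCR), and CTL given the same peptide with 10 µM IC87114, an inhibitor of the PI3K p110δ catalytic subunit (TCR + PI3Kdi), or with 2 µM PD184252, an inhibitor of the ERK-activating kinase MEK (TCR + MEKi). All groups stayed in 20 ng/mL IL-2, and DMSO was the vehicle, so the unstimulated cells were effector cells in cytokine and not resting naïve cells, and each inhibitor was tested at 1 dose and 1 time. Every culture carries the same transgenic receptor, and the replicates come from few mice, so p-values measure the spread between these cultures.

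T cells display integrins in a low affinity state. TCR or chemokine signals act from inside the cell, through the small GTPase Rap1, talin and kindlin, to open the receptor for ligand, and the bound receptor then signals inwards through the adhesion complex. LFA-1 binds ICAM-1 on target and antigen presenting cells and seals the contact through which a CTL kills. The alpha4 integrins bind VCAM-1, fibronectin and, with Itgb7, the gut addressin MAdCAM-1, whereas alphav integrins bind vitronectin, fibronectin and osteopontin and can release active TGF-beta. RNA levels do not show the affinity or the surface amount of a receptor.

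Levels are given as FPKM, fragments per kilobase of exon relative to library sizes that the authors scaled, so that levels of different genes may be compared. Changes are differences on the log2(FPKM + 0.1) scale from limma, with standard errors (SE), and a change passed the test at a Benjamini-Hochberg adjusted p under 0.05 over all 11022 genes. The estimated depth, which is approximate, was between 7870000 and 13250000 reads per sample. It put 7566 to 17506 reads on Itgal, 4106 to 10676 on Itgb2, 4046 to 7233 on Itgb1, 2094 to 5613 on Itgav and 960 to 4710 on Itgb7, but only 165 to 380 on Itgb3 and 62 to 262 on Itga4, so the last 2 genes were the least precisely measured. Of the T cell markers 9 of 9 were in the table, with a summed level of 10400 to 11600 FPKM in unstimulated CTL and 14800 to 16700 FPKM in the stimulated groups. Most of this sum was Gzmb, at a mean of 8740 FPKM in unstimulated CTL and 13000 FPKM with TCR. With TCR, Gzmb, Prf1, Cd8a, Cd8b1 and Cd247 were higher, Cd3e, Cd3g and Lck were lower, and Cd3d did not pass the test. Cd4 lay between 0.28 and 3.65 FPKM over the 12 samples, none of the 4 B cell or 4 red cell markers had a row, and 1 of 6 myeloid markers (Cd68, 4.88 to 8.44 FPKM), 1 of 4 dendritic cell markers (Zbtb46, 0.02 to 3.63 FPKM), 1 of 2 NK cell markers (Klrb1c, 1.31 to 6.23 FPKM) and 2 of 5 stromal or epithelial markers (Col1a1 and Epcam, summed level 0.24 to 2.69 FPKM) did. Zbtb46 was at 0.02 to 0.03 FPKM in unstimulated CTL and at 1.79 to 3.63 FPKM in the stimulated groups, whereas Klrb1c went from 4.58 to 6.23 FPKM down to 1.31 to 2.43 FPKM. Cd4 rose from 0.773 ± 0.293 to 2.69 ± 0.168 FPKM with TCR (log2 change 1.74, adjusted p = 9.53e-05) and was at 2.94 ± 0.875 under PI3K inhibition and 0.450 ± 0.193 under MEK inhibition (against TCR -2.40, adjusted p = 2.31e-05). Epcam was at 0.583 ± 0.133, 1.13 ± 0.169, 1.89 ± 0.573 and 0.277 ± 0.114 FPKM in the same order, with changes of 0.86 with TCR (adjusted p = 0.00806) and -1.75 for the MEK inhibitor against TCR (adjusted p = 0.000117). Col1a1 stayed at or below 0.43 FPKM. The part of other cells in the integrin values was not tested. In bulk RNA, fewer cells of a type and less RNA per cell cannot be told apart.

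The scaling of the samples matters for small changes. The summed FPKM of a sample was 470420 to 495945 in unstimulated CTL and 524343 to 666922 after stimulation. On the scale used here the median gene differed by -0.01 (log2) between TCR and unstimulated CTL, by 0.02 between PI3K inhibitor and TCR and by 0.01 between MEK inhibitor and TCR. After rescaling every sample to the same FPKM sum, these medians were -0.41, 0.19 and 0.26, and the share of passing genes that were higher went from 49% to 20%, from 49.8% to 87.3% and from 50.9% to 89.5%. For MEK inhibitor against PI3K inhibitor that share went from 50.1% to 69.5%. Among genes past the test and 2-fold, the share that were higher went from 44.4% to 22.1% for TCR, from 26.6% to 52.7% for the PI3K inhibitor and from 28.1% to 61.5% for the MEK inhibitor. Percentages of all genes beside later counts belong to the main scale. Later counts on the common FPKM sum are to be read beside the shares of passing genes given here, which moved with the scale.

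In unstimulated CTL the LFA-1 chains had the highest levels. Itgb2 averaged 272 ± 4.37 FPKM and Itgal 265 ± 11.2 (mean ± SD, n = 3 for this and each value with ±), and their samples overlapped. The next were Itgb1 at 129 ± 12.1 and Itgb7 at 128 ± 9.25, whose samples also overlapped. Below these stood Itgav at 29.5 ± 1.67, Itgb3 at 4.35 ± 0.427 and Itga4 at 1.80 ± 0.231, each without overlap with its neighbours. After TCR stimulation the order was Itgb2 and Itgal, then Itgb1, Itgav, Itgb7, Itgb3 and Itga4, so that Itgav stood above Itgb7 in all 3 TCR samples. Itgb2 and Itgal overlapped in the TCR samples and in those of both inhibitors. With the MEK inhibitor, Itgav at 56.6 ± 2.39 and Itgb7 at 52.2 ± 5.37 overlapped, whereas with the PI3K inhibitor they did not.

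**Figure D1:**
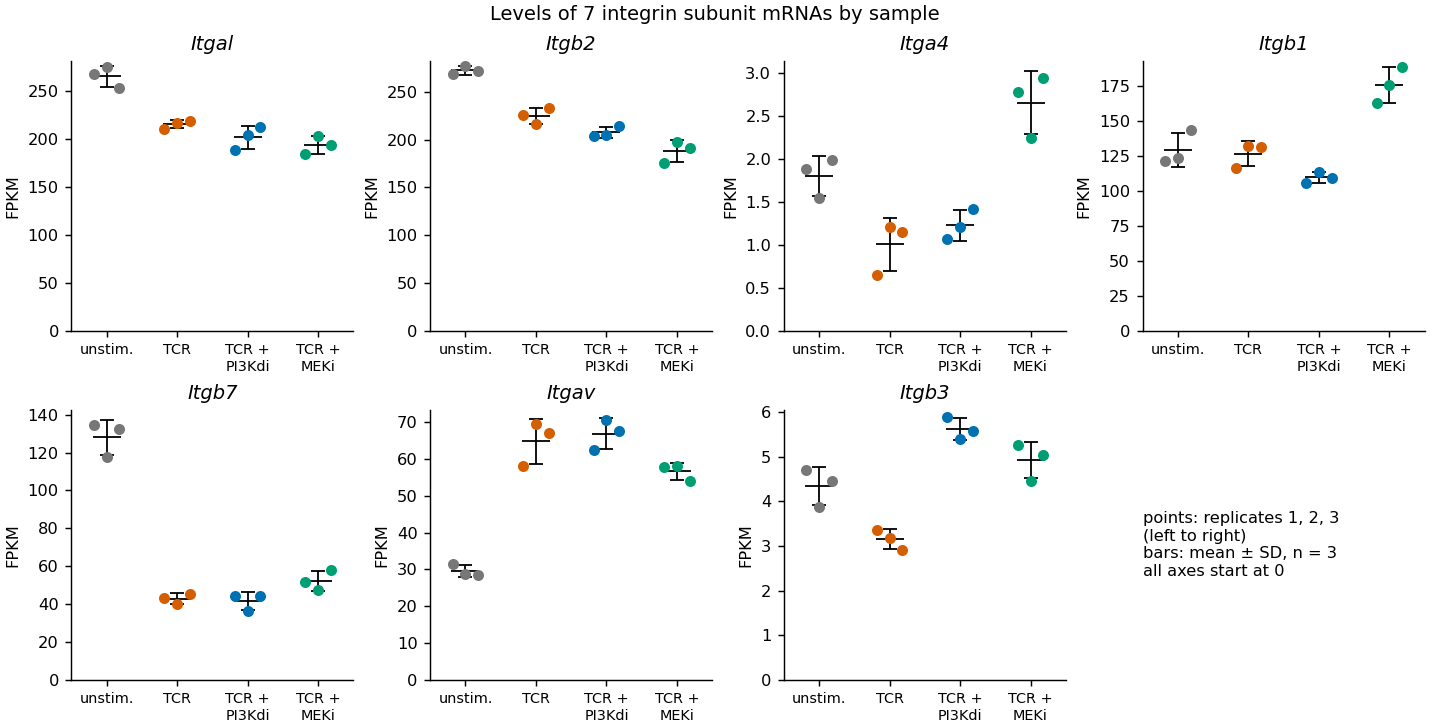
FPKM of the 7 integrin subunit mRNAs in each of the 12 samples, 1 panel per gene with its own axis from 0; points are replicates 1 to 3 and bars are the mean ± SD (n = 3). Itgb7 lay between 117.47 and 134.33 FPKM in unstimulated CTL and at or below 57.89 in the stimulated samples, while Itgav lay at or below 31.42 in unstimulated CTL and at or above 53.89 in the stimulated samples.

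TCR stimulation lowered Itgb7 and raised Itgav by more than 2-fold (Itgav by less on the common FPKM sum), and lowered 4 other subunits by less. Itgb7, the beta chain of the gut-homing alpha4beta7 integrin and the partner of CD103, was at 134.33, 117.47 and 132.48 FPKM in unstimulated replicates 1 to 3 and at 43.04, 39.75 and 45.46 in the TCR samples. All TCR samples were below all unstimulated samples, and the mean fell to 33.4% of the unstimulated mean (log2 change -1.58, SE 0.09, adjusted p = 8.38e-10). Itgav, the alpha chain shared by the receptors for vitronectin and latent TGF-beta, was at 31.42, 28.65 and 28.43 FPKM in unstimulated CTL and at 57.97, 69.51 and 67.06 in the TCR samples. The groups did not overlap, and Itgav rose to 220% of the unstimulated mean (log2 change 1.13, SE 0.07, adjusted p = 2.92e-09). The change of Itgav was 0.72 on the common FPKM sum (adjusted p = 2.32e-06), under 2-fold, where the median gene was at -0.41.

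Itgal was at 267.28, 274.93 and 252.82 FPKM in unstimulated CTL and at 210.51, 216.86 and 218.79 in the TCR samples. Itgb2, its partner in LFA-1 and the common beta chain of leukocyte integrins, was at 268.43, 277.02 and 271.29 before and at 225.25, 215.96 and 232.95 after stimulation. Neither gene's groups overlapped. Itgal fell to 81.3% (log2 change -0.30, SE 0.06, adjusted p = 0.00027) and Itgb2 to 82.5% (-0.28, SE 0.05, adjusted p = 0.000294). Of the other leukocyte alpha chains that pair with Itgb2, only Itgax had a row, at 0.29 to 0.75 FPKM over the 12 samples.

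Itgb1, the most widely shared beta chain, was at 120.93, 123.68 and 143.09 FPKM in unstimulated CTL and at 116.44, 132.09 and 131.10 in the TCR samples. These groups overlapped and the change did not pass the test (log2 change -0.03, 95% interval -0.19 to 0.13, adjusted p = 0.744). On the common FPKM sum the log2 change of Itgb1 was -0.44 (adjusted p = 7.58e-05), close to the median of all genes on that scale, and after quantile normalisation it was -0.20 (adjusted p = 0.0274).

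The low-level subunits also fell. Itga4 was at 1.88, 1.54 and 1.98 FPKM in unstimulated CTL and at 0.65, 1.21 and 1.15 in the TCR samples, with no overlap (log2 change -0.82, SE 0.21, adjusted p = 0.00249). TCR replicate 1 was the lowest of all 12 samples, and without it the change was -0.56 (adjusted p = 0.0113). The change of Itga4 was -1.20 on the common FPKM sum (adjusted p = 0.000106), past 2-fold. Itgb3, the partner of Itgav in the vitronectin receptor and of Itga2b on platelets, was at 4.71, 3.88 and 4.47 FPKM before and at 3.37, 3.19 and 2.91 after stimulation, again with no overlap (log2 change -0.45, SE 0.11, adjusted p = 0.00174). Itga2b, the 1 of 6 platelet markers with a row, was at 0.21 to 0.50 FPKM over the 12 samples.

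In this comparison 1 of 7 subunits was higher and 5 were lower, where 33.6% and 34.9% of all genes were higher and lower. Past 2-fold as well, 1 subunit was higher and 1 was lower, where 8.87% and 11.1% of all genes were. The median change of the 7 was -0.30 beside -0.01 over all genes.

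Exons of Itga4 share 1124 bases with exons of Cerkl on the opposite strand. The library kit marks strand, but whether the counting used it is not stated, and without strand the reads of the 2 genes cannot be told apart there. Cerkl was at 1.05 ± 0.146 FPKM in unstimulated CTL, 0.520 ± 0.110 with TCR, 0.733 ± 0.0404 with the PI3K inhibitor added and 0.493 ± 0.0702 under MEK inhibition. The log2 change of Cerkl with TCR was -0.89 (adjusted p = 0.000574), beside -0.82 for Itga4. Itgav shares 634 exon bases with Gm13684, on the opposite strand and without a row.

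RefSeq promoters, 250 bases before to 50 bases after a gene's start, were given for 4 of the 8 subunits (Itga4, Itgb1, Itgb7 and Itgav). Those of the 3 subunits that passed 2-fold in any comparison are shown on their gene's strand, in build GRCm38.p6, because these are the starts whose RNA moved most. They were searched on both strands for 5 short motifs: GTAAACA (bound by FOXO factors, which AKT keeps out of the nucleus), CCGGAA (ETS factors, some of which ERK phosphorylates), TGANTCA (AP-1), CACCC (KLF factors) and GGGCGG (Sp1). Capitals mark the matches.

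Itgb7, chr15:102231886-102232185, minus strand: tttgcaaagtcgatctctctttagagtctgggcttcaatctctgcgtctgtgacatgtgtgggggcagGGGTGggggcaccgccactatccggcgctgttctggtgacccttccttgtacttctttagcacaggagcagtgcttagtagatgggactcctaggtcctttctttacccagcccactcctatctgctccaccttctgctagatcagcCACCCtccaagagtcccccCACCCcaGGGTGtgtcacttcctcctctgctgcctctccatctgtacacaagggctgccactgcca

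Itgav, chr2:83724147-83724446, plus strand: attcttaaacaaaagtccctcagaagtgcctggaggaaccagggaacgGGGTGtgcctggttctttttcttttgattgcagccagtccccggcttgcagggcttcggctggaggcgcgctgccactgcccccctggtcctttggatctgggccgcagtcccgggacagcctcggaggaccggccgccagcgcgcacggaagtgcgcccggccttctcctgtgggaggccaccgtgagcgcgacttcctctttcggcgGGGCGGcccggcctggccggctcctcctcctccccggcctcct

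Itga4, chr2:79255176-79255475, plus strand: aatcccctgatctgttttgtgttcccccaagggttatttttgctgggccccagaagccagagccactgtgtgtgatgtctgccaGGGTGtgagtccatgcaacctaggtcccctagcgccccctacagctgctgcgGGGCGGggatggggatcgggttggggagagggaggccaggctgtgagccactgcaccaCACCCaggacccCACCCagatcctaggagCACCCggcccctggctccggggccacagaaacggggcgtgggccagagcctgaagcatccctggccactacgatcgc

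The windows held 56.3% G and C for Itgb7, 67.3% for Itgav and 64.3% for Itga4, beside a median of 52.7% over 32851 mouse promoters. CACCC or its complement stood 4 times in the Itgb7 window, 4 times in the Itga4 window and once in the Itgav window, and 57.5% of all promoters held at least 1 match. GGGCGG stood once each in the Itgav and Itga4 windows, and 35.7% of all promoters held it. The letters of GTAAACA (3.65% of promoters), CCGGAA (14.9%) and TGANTCA (7.81%) were not in these 3 windows. Other letters that the same factors may bind were not searched. No 2 motifs overlapped at these positions.

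In the main fit, which did not pair samples, Itgb3 was the 1 subunit whose level passed the test for the PI3K inhibitor against TCR alone. It was at 5.90, 5.40 and 5.59 FPKM, above the 3.37, 3.19 and 2.91 of the TCR samples and also above the highest unstimulated sample. Its mean was 178% of the TCR mean (log2 change 0.82, SE 0.11, adjusted p = 9.08e-05). The 2 subunits with the largest TCR changes did not pass the test. Itgb7 was at 44.31, 36.24 and 44.44 FPKM, overlapping the TCR samples (log2 change -0.04, 95% interval -0.24 to 0.15, adjusted p = 0.776). Itgav was at 62.32, 70.67 and 67.66 FPKM, also overlapping (log2 change 0.05, 95% interval -0.11 to 0.20, adjusted p = 0.678).

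Itgb1 was at 105.85, 113.74 and 109.33 FPKM, below every TCR sample, but the change missed the threshold (log2 change -0.20, SE 0.07, adjusted p = 0.0546). With the replicate number as a block it passed (adjusted p = 0.015), and it also passed without TCR replicate 1 (log2 change -0.26, adjusted p = 0.0274). Itgb2 was at 203.77, 204.59 and 214.28 FPKM, again below every TCR sample, with a change of -0.11 (95% interval -0.23 to 0.00, adjusted p = 0.13). Itgal, at 188.62, 203.82 and 211.68 FPKM, overlapped the TCR samples (-0.10, adjusted p = 0.222). Itga4, at 1.06, 1.20 and 1.41 FPKM, overlapped them too (0.30, 95% interval -0.14 to 0.74, adjusted p = 0.313).

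With limma, 1 of 7 subunits was higher and 0 were lower, where 12.7% and 12.8% of all genes were higher and lower. At an unadjusted p under 0.05, 1 was higher and 2 were lower, and a voom fit to approximate reads called 1 in each direction. 0 subunits passed 2-fold in either fit, where 0.499% of all genes were higher and 1.38% lower by more than 2-fold. The median change of the 7 was -0.04 beside 0.02 over all genes.

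With the MEK inhibitor, the alpha4 and beta1 chains rose against TCR alone, Itgb3 and Itgb7 were higher than with TCR alone, and the LFA-1 chains were slightly lower. Itga4, the alpha chain of VLA-4, was at 2.77, 2.24 and 2.94 FPKM, higher than every sample of the other 3 groups. Its mean was 264% of the TCR mean (log2 change 1.35, SE 0.21, adjusted p = 0.000154), and 1.09 without TCR replicate 1 (adjusted p = 0.000397). Cerkl, which overlaps its exons, changed by -0.05 (adjusted p = 0.844). Itgb1, the beta chain of VLA-4, was at 162.97, 175.75 and 188.53 FPKM, higher than every sample of the other 3 groups, and rose to 139% of the TCR mean (log2 change 0.47, SE 0.07, adjusted p = 0.000191).

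Itgb3 was at 5.27, 4.47 and 5.05 FPKM, above every TCR sample (log2 change 0.63, SE 0.11, adjusted p = 0.000412). Itgb7 was at 51.56, 47.21 and 57.89 FPKM, above every TCR sample and below every unstimulated sample. Its difference from TCR was 0.29 (SE 0.09, adjusted p = 0.0238) and was lost without TCR replicate 2 (adjusted p = 0.0909), MEK inhibitor replicate 1 (0.0523) or MEK inhibitor replicate 3 (0.118), and without the intensity trend (0.0553).

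Itgal was at 183.95, 203.02 and 193.62 FPKM and Itgb2 at 175.67, 197.52 and 190.88, each below every TCR sample. The changes were -0.16 (SE 0.06, adjusted p = 0.0435) for Itgal and -0.26 (SE 0.05, adjusted p = 0.00166) for Itgb2, but on the common FPKM sum they were 0.11 and 0.00, where the median gene was at 0.26, and after quantile normalisation they were 0.00 and -0.11. The Itgal call was also lost when any 1 of the 3 TCR replicates (adjusted p = 0.0538, 0.0944 and 0.115 without replicates 1, 2 and 3), MEK inhibitor replicate 1 (0.166) or MEK inhibitor replicate 3 (0.0973) was left out, and without the intensity trend (0.0829). Itgav, at 57.88, 58.18 and 53.89 FPKM, overlapped the TCR samples through TCR replicate 1 at 57.97, and its change of -0.19 missed the threshold (SE 0.07, adjusted p = 0.052). It passed without that replicate (-0.27, adjusted p = 0.00857) and with the replicate block (adjusted p = 0.0497).

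4 of 7 subunits were higher and 2 lower than with TCR alone, where 18.9% and 18.2% of all genes were. Past 2-fold, 1 was higher and 0 were lower, where 0.98% and 2.51% of all genes were, and at an unadjusted p under 0.05, with no fold limit, 3 were lower, as in the voom fit, which had 0 lower by over 2-fold. On the common FPKM sum 4 were higher and 0 lower, where 89.5% of all passing genes were higher. The median change of the 7 was 0.29 beside 0.01 over all genes, and 0.55 beside 0.26 on the common FPKM sum.

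**Figure D2:**
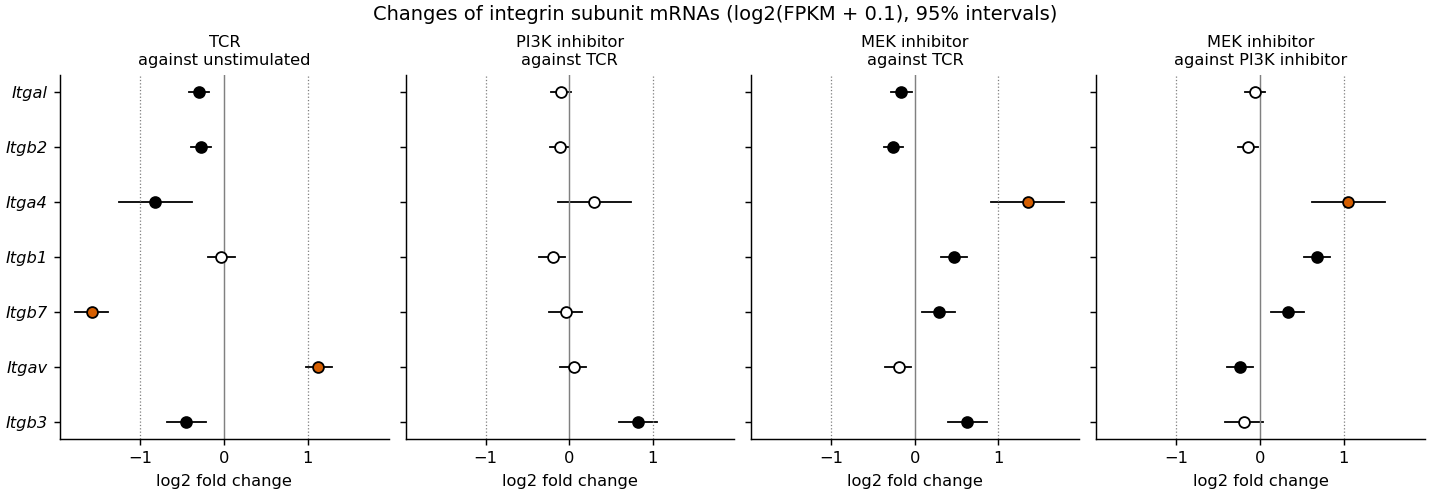
Log2 fold change of each integrin subunit in the 4 comparisons, with 95% intervals from limma on log2(FPKM + 0.1); filled points passed an adjusted p under 0.05, orange points were also past 2-fold (dotted lines), open points did not pass. Itgb7 (-1.58) and Itgav (1.13) are the orange points for TCR, and Itga4 is the orange point for the MEK inhibitor against TCR (1.35) and against the PI3K inhibitor (1.05).

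The direct comparison of the inhibitors asks whether their effects differ, since the TCR samples serve as the reference for both. Itga4 was 217% of its PI3K inhibitor mean in the MEK inhibitor samples (log2 difference 1.05, SE 0.21, adjusted p = 0.00133) and Itgb1 was 160% (0.68, SE 0.07, adjusted p = 8.71e-06), with no overlap for either gene. Itgb7 was higher by 0.33 (SE 0.09, adjusted p = 0.0141). Itgav was lower with the MEK inhibitor by a log2 difference of -0.24 (SE 0.07, adjusted p = 0.0231). The Itgb7 and Itgav differences were lost without PI3K inhibitor replicate 2 (adjusted p = 0.0735 and 0.094) or MEK inhibitor replicate 3 (0.078 and 0.0971), and Itgav also without PI3K inhibitor replicate 3 (0.0638), on the common FPKM sum (0.209) and without the trend (0.0537).

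Itgb3 was higher with either inhibitor than with TCR alone, and the 2 inhibitor groups did not differ past the threshold (log2 difference -0.19, 95% interval -0.42 to 0.04, adjusted p = 0.199), although all MEK inhibitor samples lay below all PI3K inhibitor samples. Itgb2 (-0.14, 95% interval -0.26 to -0.03, adjusted p = 0.0557) passed only without MEK inhibitor replicate 2 (adjusted p = 0.0386) and with quantile-normalised values (0.0307) among the alternatives. Itgal did not pass (-0.06, 95% interval -0.18 to 0.06, adjusted p = 0.483). In all, 3 of 7 subunits were higher and 1 lower, where 14.5% and 14.4% of all genes were. Past 2-fold, 1 was higher and 0 were lower, where 1.39% and 1.71% of all genes were, and 2 were lower at an unadjusted p under 0.05 with no fold limit, while voom had 0 lower by over 2-fold. The median difference of the 7 was -0.06 beside -0.01 over all genes.

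Because an integrin needs both chains, the level ratio of partner chains was followed across the 4 groups. A ratio of FPKM does not depend on how a sample was scaled, but the 0.1 FPKM added before the log pulls the ratios of the low Itga4, and to a lesser extent Itgb3, a little towards 1. 5 ratios were tested with an exact permutation test of the differences among groups over all divisions of the 12 samples into 4 sets of 3, with p-values adjusted over the 5, and the smallest p it can give is 6.49e-05. The LFA-1 ratio, Itgal to Itgb2, stayed near 1. It was 0.973 ± 0.0359 in unstimulated CTL, 0.959 ± 0.0389 with TCR, 0.970 ± 0.0386 under the PI3K inhibitor and 1.03 ± 0.0165 under the MEK inhibitor, and differences among groups did not pass (exact permutation p = 0.136, adjusted p = 0.136).

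The alpha4 chain was scarce beside both partners. Per 100 Itgb1, on the FPKM scale, Itga4 stood at 1.39 in unstimulated CTL, 0.784 with TCR, 1.12 under the PI3K inhibitor and 1.51 under the MEK inhibitor. The log2 ratios were -5.93, -6.24 and -6.11 in unstimulated CTL, -7.28, -6.66 and -6.71 with TCR, -6.51, -6.45 and -6.18 under the PI3K inhibitor and -5.83, -6.23 and -5.96 under the MEK inhibitor (exact permutation p = 0.00234, adjusted p = 0.00292). The TCR samples lay below all other samples, and the MEK inhibitor samples overlapped the unstimulated ones. Per 100 Itgb7, Itga4 stood at 1.40, 2.36, 2.96 and 5.07 in the same order of groups (exact permutation p = 0.00039, adjusted p = 0.000866). The MEK inhibitor samples, at log2 ratios of -4.17, -4.34 and -4.25, lay above all others, and the unstimulated samples, at -6.09, -6.16 and -5.99, lay below all others.

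The Itgav ratios moved as well. Itgav to Itgb1 was 0.230 ± 0.0306 in unstimulated CTL, 0.512 ± 0.0142 with TCR, 0.610 ± 0.0181 under the PI3K inhibitor and 0.324 ± 0.0352 under the MEK inhibitor. No 2 groups overlapped in this ratio (exact permutation p = 6.49e-05, the smallest possible, adjusted p = 0.000325). Itgav to Itgb3 was 6.81 ± 0.525, 20.7 ± 3.08, 11.9 ± 1.27 and 11.6 ± 1.27 in the same order (exact permutation p = 0.000519, adjusted p = 0.000866). In that ratio all unstimulated samples were lowest, all TCR samples were highest, and the inhibitor groups overlapped each other.

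**Figure D3:**
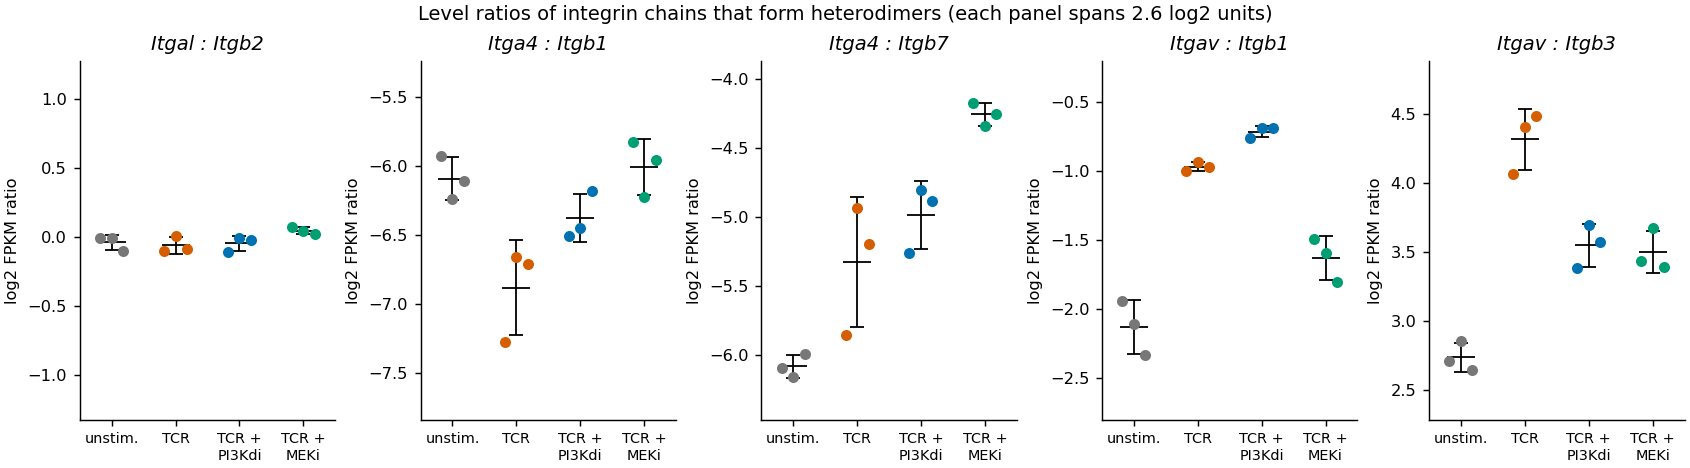
Log2 ratio of the FPKM (+ 0.1) of 2 integrin chains that pair, in each of the 12 samples; points are replicates, bars are the mean ± SD (n = 3), and every panel spans the same number of log2 units. Itgal to Itgb2 stays within -0.11 to 0.07, while Itgav to Itgb1 separates all 4 groups, with means of -2.12, -0.97, -0.71 and -1.63.

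Among the 11 other integrin subunits with a row, Itga3, the alpha chain of a laminin receptor that pairs with Itgb1, had the largest change. It was at 1.76, 1.25 and 1.88 FPKM in unstimulated CTL and at 16.24, 16.69 and 19.73 with TCR (log2 change 3.37, SE 0.15, adjusted p = 5.1e-11). It was lower with the PI3K inhibitor, at 11.13, 9.22 and 12.35 FPKM (log2 change against TCR -0.69, SE 0.15, adjusted p = 0.0042). It was lower again with the MEK inhibitor, at 4.31, 4.31 and 5.41 FPKM (against TCR -1.89, adjusted p = 3.65e-07; against the PI3K inhibitor -1.20, adjusted p = 3.46e-05), still above unstimulated CTL in every sample. TCR stimulation lowered Itga1, a collagen receptor chain, from 3.99 ± 0.373 to 1.48 ± 0.202 FPKM (log2 change -1.37, adjusted p = 3.54e-06). Itga6, a laminin receptor chain, fell from 2.47 ± 0.106 to 1.01 ± 0.103 (-1.21, adjusted p = 3.03e-06) and Itga9 from 1.19 ± 0.187 to 0.520 ± 0.0361 (-1.05, adjusted p = 0.000148).

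3 more subunits are named after their values were seen. Itga5, the alpha chain of the fibronectin receptor, rose from 1.40 ± 0.267 to 2.47 ± 0.327 FPKM with TCR (log2 change 0.79, adjusted p = 0.00425) and was lower than with TCR alone at 1.39 ± 0.538 with the PI3K inhibitor (-0.84, adjusted p = 0.0101) and 1.5 ± 0.0569 with the MEK inhibitor (-0.68, adjusted p = 0.0214). Itga6 was higher with the PI3K inhibitor, at 1.76 ± 0.185 FPKM, than with TCR alone (0.74, adjusted p = 0.00188). Itgb5 passed at levels under 1 FPKM with the PI3K inhibitor (0.15 ± 0.108 against 0.487 ± 0.0929, adjusted p = 0.0418). The estimated depth put only 1 to 33 reads per sample on Itgb5, so this call rests on few reads. Of the 11, 2 were higher and 4 lower with TCR, 1 was higher and 3 were lower under the PI3K inhibitor, 0 were higher and 2 lower under the MEK inhibitor, and 0 were higher and 3 lower with MEK inhibitor against PI3K inhibitor. For these zero counts, 0 and 1 subunits were higher at an unadjusted p under 0.05, and voom had 0 in both. Over all genes the shares higher and lower were 33.6% and 34.9% in the first of these comparisons, 12.7% and 12.8% in the second, 18.9% and 18.2% in the third, and 14.5% and 14.4% in the last. On the common FPKM sum the counts of the 11 were 1 and 4, 2 and 3, 0 and 1, and 1 and 2. There 20%, 87.3%, 89.5% and 69.5% of all passing genes were higher. The median changes of the 11 were -0.30, 0.10, -0.20 and -0.37.

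**Figure D4:**
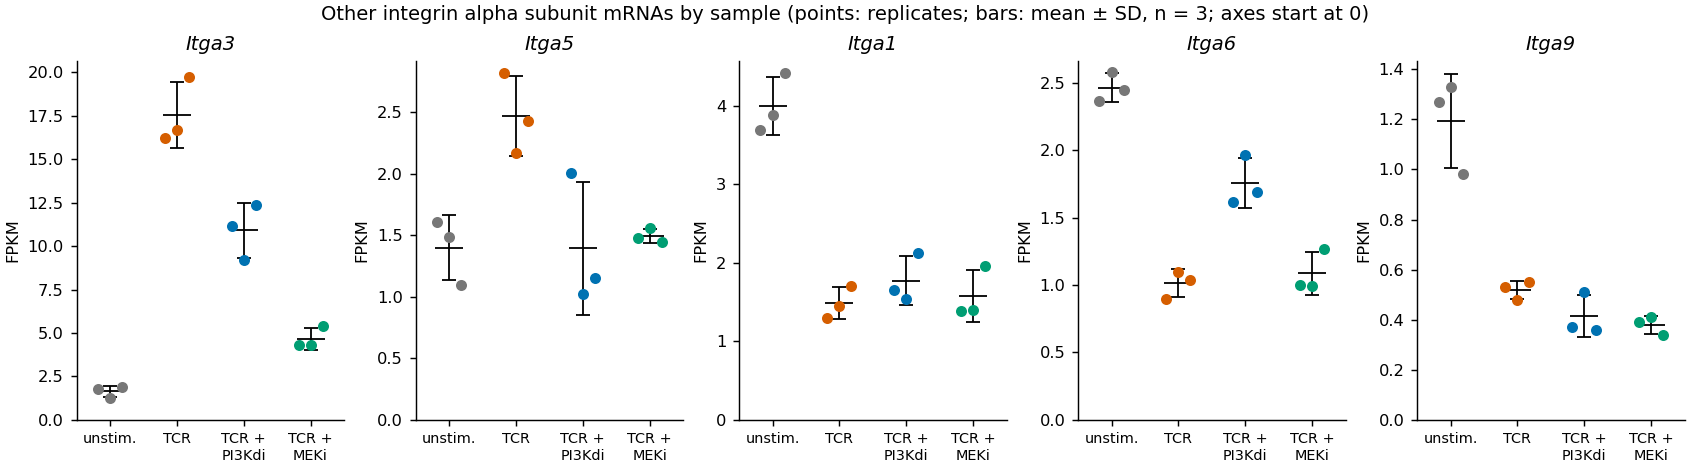
FPKM of 5 other integrin alpha chains in each of the 12 samples, with points for replicates, bars for the mean ± SD (n = 3) and axes from 0. Itga3 climbs from a mean of 1.63 to 17.6 FPKM with TCR and stands at 10.9 under the PI3K inhibitor and 4.68 under the MEK inhibitor.

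Genes that control integrin opening from inside the cell, activators and inhibitors together, moved mostly down with TCR stimulation. Of 29 listed genes with a row, 20 were lower and 7 higher, where 34.9% of all genes were lower and 33.6% higher (median log2 change -0.70 beside -0.01 over all genes, and -1.11 beside -0.41 on the common FPKM sum, where 22 were lower and 2 higher). The list holds adaptors and both activators and inhibitors of Rap1, so its counts do not show a loss of activators. Rasgrp1, a Ras exchange factor, fell from 57.0 ± 2.37 to 9.71 ± 0.415 FPKM (-2.54, adjusted p = 1.59e-12), and Rasgrp2, a Rap1 exchange factor, from 20.7 ± 1.25 to 4.61 ± 0.231 (-2.15, adjusted p = 1.18e-10). Rap1gap2, which switches Rap1 off, fell from 1.52 ± 0.236 to 0.170 ± 0.0361 (-2.58, adjusted p = 1.3e-07). The Rap1 exchange factors Rapgef1 (25.8 ± 1.44 to 78.8 ± 3.24 FPKM, 1.61, adjusted p = 2.3e-12) and Rapgef6 (10.4 ± 0.758 to 24.4 ± 2.65, 1.22, adjusted p = 6.86e-08) rose. The talin gene Tln1 and the kindlin gene Fermt3, named after their values were seen because their proteins bind the beta tails, fell from 79.3 to 45.6 FPKM (-0.80, adjusted p = 9.08e-08) and from 140 to 82.2 FPKM (-0.77, adjusted p = 1.19e-07).

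In the same list 7 genes were higher and 4 lower with the PI3K inhibitor, and 13 were higher and 5 lower under MEK inhibition, against TCR alone, where 12.7% and 12.8% of all genes rose and fell under the first and 18.9% and 18.2% under the second. The medians were -0.01 and 0.19. On the common FPKM sum 12 were higher and 1 was lower with the PI3K inhibitor (median 0.18 beside 0.19 over all genes), and under the MEK inhibitor 21 were higher and 2 were lower (median 0.45 beside 0.26). The MEK inhibitor raised Rasgrp1 to 22.4 ± 1.04 FPKM (1.20, adjusted p = 1.05e-07) and Cytip, which binds the Itgb2 regulator cytohesin-1, from 23.6 ± 0.777 to 57.4 ± 6.05 (1.27, adjusted p = 3.45e-08). Cytip was also higher with the PI3K inhibitor than with TCR alone, at 42.8 ± 4.14 FPKM (0.85, adjusted p = 5.29e-06). The change of Rasgrp1 with the PI3K inhibitor did not pass (0.10, adjusted p = 0.397). With MEK inhibitor against PI3K inhibitor, 13 genes were higher and 4 lower, beside 14.5% and 14.4% of all genes. Rasgrp1 was higher by 1.09 (adjusted p = 2.8e-07), and Rasa3, a GTPase-activating protein for Ras and Rap1, was lower, at 11.1 ± 0.54 against 24.3 ± 1.13 FPKM (-1.13, adjusted p = 3.01e-08). With TCR alone Rasa3 was at 12.5 ± 0.768 FPKM. Against TCR, Rasa3 was higher with the PI3K inhibitor (0.95, adjusted p = 4.49e-07), and its change with the MEK inhibitor did not pass (-0.17, adjusted p = 0.0624).

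Of 18 genes of the adhesion complex and outside-in signalling, 8 were higher and 7 lower with TCR (33.6% and 34.9% of all genes, median 0.10). On the common FPKM sum 2 were higher and 10 lower, where 20% of all passing genes were higher. Vcl, the talin- and actin-binding vinculin, rose from 1.10 ± 0.0473 to 4.96 ± 0.63 FPKM (2.07, adjusted p = 8.82e-10), whereas the adaptors Pxn (88.0 ± 4.15 to 43.9 ± 2.35, -1.0, adjusted p = 6e-09) and Lims2 (2.00 ± 0.44 to 0.543 ± 0.163, -1.72, adjusted p = 1.33e-05) fell. With the PI3K inhibitor 4 were higher and 6 lower (12.7% and 12.8% of all genes). These counts were 6 and 3 on the common FPKM sum, where 87.3% of all passing genes were higher. Actn1, the actin cross-linker alpha-actinin-1, was at 2.34 ± 0.213 against 5.54 ± 0.372 FPKM (-1.21, adjusted p = 4.92e-06). Under the MEK inhibitor 3 were higher and 8 lower (18.9% and 18.2% of all genes). These counts were 8 and 4 on the common FPKM sum, where 89.5% of all passing genes were higher. With MEK inhibitor against PI3K inhibitor the counts were 5 and 7 (14.5% and 14.4% of all genes). They were 5 and 4 on the common FPKM sum, where 69.5% of all passing genes were higher.

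Of 10 integrin ligand genes, 6 were higher and 4 lower with TCR, beside 33.6% and 34.9% of all genes, and 5 and 4 on the common FPKM sum. Spp1, which encodes the alphav and alpha4 ligand osteopontin, rose from 1060 ± 202 to 5060 ± 361 FPKM (2.27, adjusted p = 4.8e-10), and was at 5190 ± 251 under the PI3K inhibitor and at 1480 ± 200 under the MEK inhibitor (against TCR -1.78, adjusted p = 1.01e-07). Icam1, the LFA-1 ligand, rose from 27.0 ± 1.22 to 63.9 ± 3.03 FPKM (1.24, adjusted p = 2.42e-10), and was 84.8 ± 4.52 with the MEK inhibitor and 37.7 ± 2.57 with the PI3K inhibitor (difference 1.17, adjusted p = 1.62e-08). Icam5, another LFA-1 ligand, rose from 0.167 ± 0.0321 to 1.14 ± 0.0985 (2.22, adjusted p = 7.83e-08). Cdh1, E-cadherin, the ligand of CD103, fell from 8.38 ± 0.383 to 1.28 ± 0.0945 FPKM (-2.62, adjusted p = 1.21e-10). Against TCR, 0 ligand genes were higher and 5 lower with the PI3K inhibitor (0 higher also at an unadjusted p under 0.05 and with voom), beside 12.7% and 12.8% of all genes. On the common FPKM sum 0 were higher and 2 lower, and after quantile normalisation 1 was higher and 4 were lower. Under the MEK inhibitor 3 were higher and 3 lower, beside 18.9% and 18.2% of all genes, and 3 and 2 on the common FPKM sum. With MEK inhibitor against PI3K inhibitor, 2 were higher and 1 was lower, beside 14.5% and 14.4% of all genes.

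Of 11 membrane proteins that sit beside integrins, 5 were higher and 3 lower with TCR (33.6% and 34.9% of all genes). These counts were 5 and 6 on the common FPKM sum, where 20% of all passing genes were higher. The tetraspanins Cd63 (0.387 ± 0.0379 to 17.3 ± 1.7 FPKM, 5.16, adjusted p = 1.73e-12), Cd9 (2.97 ± 0.635 to 30.0 ± 3.83, 3.30, adjusted p = 2.52e-11) and Cd82 (73.9 ± 4.62 to 357 ± 14.3, 2.27, adjusted p = 1.8e-13) rose. Cd226, an LFA-1 associated costimulatory receptor, fell from 11.2 ± 1.77 to 3.99 ± 0.0764 FPKM (-1.45, adjusted p = 1.3e-07). Cd63 was lower than with TCR alone at 7.91 ± 1.86 with the PI3K inhibitor (-1.14, adjusted p = 0.000258) and at 0.943 ± 0.188 with the MEK inhibitor (-4.07, adjusted p = 1.43e-09). Cd226 was higher at 9.49 ± 0.259 with the MEK inhibitor (1.23, adjusted p = 5.65e-06). Against TCR, 1 was higher and 4 were lower with the PI3K inhibitor (12.7% and 12.8% of all genes), and 2 and 4 on the common FPKM sum. With the MEK inhibitor 2 were higher and 5 lower (18.9% and 18.2% of all genes). These counts were 6 and 5 on the common FPKM sum, where 89.5% of all passing genes were higher. With MEK inhibitor against PI3K inhibitor 3 were higher and 2 lower (14.5% and 14.4% of all genes), and 5 and 2 on the common FPKM sum.

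**Figure D5:**
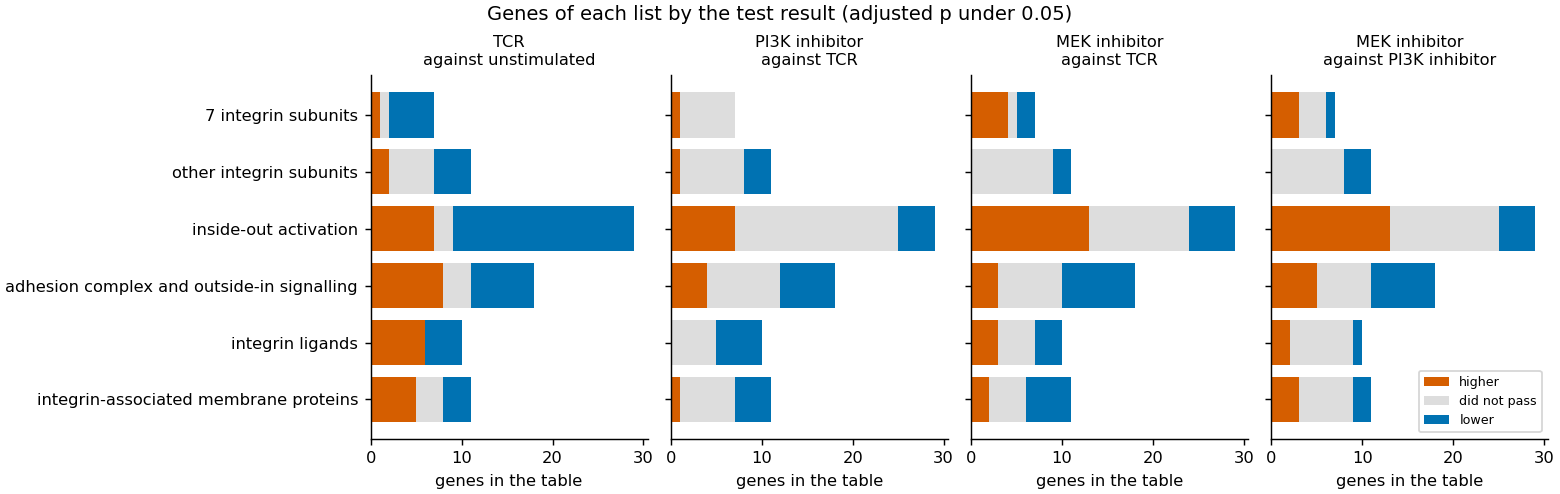
Number of genes of each list (horizontal axis) that were higher (orange), lower (blue) or did not pass the test (grey) in the 4 comparisons. Among the 29 genes listed for inside-out activation, inhibitors included, 20 were lower with TCR and 13 were higher with the MEK inhibitor against TCR. Among the 7 integrin subunits these counts were 5 and 4. Over all genes the shares were 34.9% and 18.9%.

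For the 3 subunits past 2-fold, the genes with the most similar profiles were found over the 12 samples among 9898 other genes with a mean of at least 1 FPKM, by the root mean square difference of log2 levels centred on each gene's mean. Closest to Itgb7 were A630055G03Rik (0.10), the calpain gene Capn2 (0.12) and Slc9a3r1 (0.12). Capn2 averaged 231, 76.1, 84.1 and 98.5 FPKM in unstimulated, TCR, PI3K inhibitor and MEK inhibitor samples. Closest to Itgav were Rc3h1 (0.05), Agfg1 (0.08) and Osbpl8 (0.08), and Agfg1 averaged 52.2, 113, 114 and 105 FPKM. Closest to Itga4 were Aim1 (0.20), Zbtb8a (0.21) and Tnfrsf11b (0.25), and Aim1 averaged 26.4, 15, 19.3 and 34 FPKM.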

How the data were processed

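RNA of 12 CTL cultures was sequenced from stranded mRNA libraries. Per the study's methods and processing notes, the authors aligned reads to mm10 with STAR 2.4.2a, counted them per RefSeq gene with Subread 1.5.0, removed genes with low counts, scaled libraries by TMM in edgeR and deposited FPKM from summed exon lengths, with replicates not pooled. The counts were not used here. Read totals were not used here either, and depth was inferred from the spacing of low FPKM values, of which 61.6% to 71.1% (75 to 102 per sample) came within 0.15 of whole reads, so whole reads were not recovered. Columns were assigned by their headers, and 0 value columns were left unassigned.

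log2(FPKM + 0.1) of all 11022 genes was fitted with limma 3.58.1 (R 4.3.3; group means over 12 samples, contrasts, eBayes with trend, two-sided); the pseudocount understates changes of low genes. Pair ratios were tested by exact permutation. The subunits and gene lists were chosen with earlier results of these data known. Named genes are the subunits, up to 3 rises and 3 falls per list and comparison past 2-fold with a mean FPKM of at least 1, and the 3 genes closest in profile. Whether equal replicate numbers mean the same mouse is not stated. Deviations of same-numbered samples correlated at 0.122 to 0.451 in the 3 comparisons among stimulated groups and at 0.004 to 0.153 for TCR against unstimulated. The main limma fit and the main exact tests did not pair samples by replicate number. Alternatives were the replicate block, other pseudocounts, filters and scalings, fits without the trend or of the compared groups alone, treat, voom, and leaving out each replicate. The fit was tested on simulated data. Promoters are from RefSeq (GRCm38.p6).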

Additional observations from a re-analysis of the deposited data

Results flagged for a closer look

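The effects of the MEK and PI3K inhibitors differed past the test for 4 of the 7 subunits, 3 higher and 1 lower, beside 14.5% and 14.4% of all genes. The log2 difference, MEK inhibitor minus PI3K inhibitor, was 1.05 for Itga4, 0.68 for Itgb1, 0.33 for Itgb7 and -0.24 for Itgav. Among the listed genes past 2-fold with a mean of at least 1 FPKM it was -1.2 for Itga3, 1.09 for Rasgrp1, -1.13 for Rasa3, 1.17 for Icam1, -1.82 for Spp1, -2.93 for Cd63 and 1.58 for Cd226. Each group held 3 samples, too few to look for single outlying samples.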

How the results depend on the processing

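Of 420 changes of single subunits under alternative settings, 389 kept their direction where called and their side of the threshold, 18 lost the threshold, 10 gained it and 3 turned: Itgal for the MEK inhibitor against TCR on the common FPKM sum (0.11) and after quantile normalisation (0.00), and Itgb2 there on the common FPKM sum (0.00). For the other cases, including those named beside their results, the cause was not tested. With TCR, 2 subunits passed 2-fold, and 1 did when treat tested against 2-fold. On the common FPKM sum the count was again 2, but of Itgb7 and Itga4 (-1.20), with Itgav at 0.72. For the MEK inhibitor against TCR and against the PI3K inhibitor, the 1 subunit past 2-fold (Itga4) became 0 with a pseudocount of 1 and with treat. Leaving out 1 sample at a time gave 1 to 2 passing subunits for the PI3K inhibitor against TCR, and for the MEK inhibitor against the PI3K inhibitor 2 to 5 passing subunits and 0 to 1 past 2-fold (0 without PI3K inhibitor replicate 1 or MEK inhibitor replicate 3, where Itga4 stayed past the test). The replicate block gave 2 passing subunits (Itgb3 and Itgb1) for the PI3K inhibitor against TCR, and so did the voom fit, which was chosen after seeing the data. Beyond Itgb1 and the Itgav call named above, the block changed no call of a subunit. The exact tests of the pair ratios stayed on their side of 0.05 in every setting tried. Within replicate numbers, where the smallest p of 576 arrangements is 0.00174, the adjusted p was 0.127 for Itgal to Itgb2, 0.00651 for Itgav to Itgb3 and 0.00289 for the other 3. The ratio of Itgae to Itgb7 was planned and could not be computed without Itgae. Across all genes, 2202, 207, 385 and 341 passed 2-fold in the 4 comparisons, 1405, 90, 201 and 150 with a pseudocount of 1, and 1174, 27, 106 and 64 with treat. Depth limits Itga4 and Itgb3 most.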
